A study of Mus musculus with 6 samples.

Results

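The nuclear-encoded subunits of respiratory complexes II to V were examined in mouse multiple myeloma cells, malignant plasma cells taken from bone marrow per the labels. The members were the genes whose symbol in the platform annotation was Sdha, Sdhb, Sdhc, Sdhd, Cyc1 or Cycs or began with Uqcr, Atp5 or Cox followed by a digit from 4 to 8. They numbered 47 of the 12393 genes with a single symbol on the array and were read by 86 probe sets, of which the brightest over the 6 arrays stood for each gene. The rule used names alone and no measured value, but the members were chosen with earlier results of these data known. By complex there were 4 genes of complex II, 9 of complex III, cytochrome c itself (Cycs), 16 of complex IV and 17 of complex V.

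Each array measured RNA from cells kept for 12 h in medium free of serum, with no IGF-1 in the control group (3 arrays) and with 100 ng/ml IGF-1 in the treated group (3 arrays). IGF-1, insulin-like growth factor 1, is a growth and survival factor for myeloma cells. The labels name neither a cell line nor a mouse strain and do not say whether replicates were separate cultures, so the p-values rest on how far these samples scatter, and that scatter may be technical. The values are MAS5 signals, linear intensities that can be compared between arrays for a probe set but not between probe sets.

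The respiratory chain of the inner mitochondrial membrane passes electrons from metabolites to oxygen and pumps protons, and ATP synthase, complex V, uses the proton gradient to make ATP. Complex II (succinate dehydrogenase) and complex I feed electrons to ubiquinone, complex III hands them to the small carrier cytochrome c, and complex IV (cytochrome c oxidase) gives them to oxygen. Complexes III, IV and V also contain subunits encoded by mitochondrial DNA, which were not analysed here. Several subunits of complexes IV and V exist as paralogues, some of them restricted to muscle, lung or testis.

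Complex III and a single gene of the ATP synthase c ring held most of the rises. Of the 47 members, 44 passed the filter on dim signals (mean over the 6 arrays above 53.61), and 9 of these 44 rose with IGF-1 at a limma adjusted p below 0.05, adjusted over all 11313 probe sets tested. The 9 were Sdhb, Uqcrc1, Cyc1, Uqcrb, Uqcrq, Uqcr10, Uqcr11, Cox6c and Atp5g1. They made up 20.5% of the tested members, against 7.05% of all 6895 genes tested that rose. No member fell in the limma fit (0 of 44, against 8.05% of all genes), and at an unadjusted p below 0.05 there were 13 higher and 1 lower, Cox8c, against 14.4% and 16.1% of all genes. In 18 of the 44 members (40.9%) every IGF-1 array lay above every control array, against 17.1% of all genes, and in 1 member, Sdha, every IGF-1 array lay below, against 18.2%. The median log2 difference was 0.14 over the tested members and -0.01 over all genes, with 34 members higher and 10 lower. Those higher were 77.3% of the tested members, against 48.7% of all genes.

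**Figure D1:**
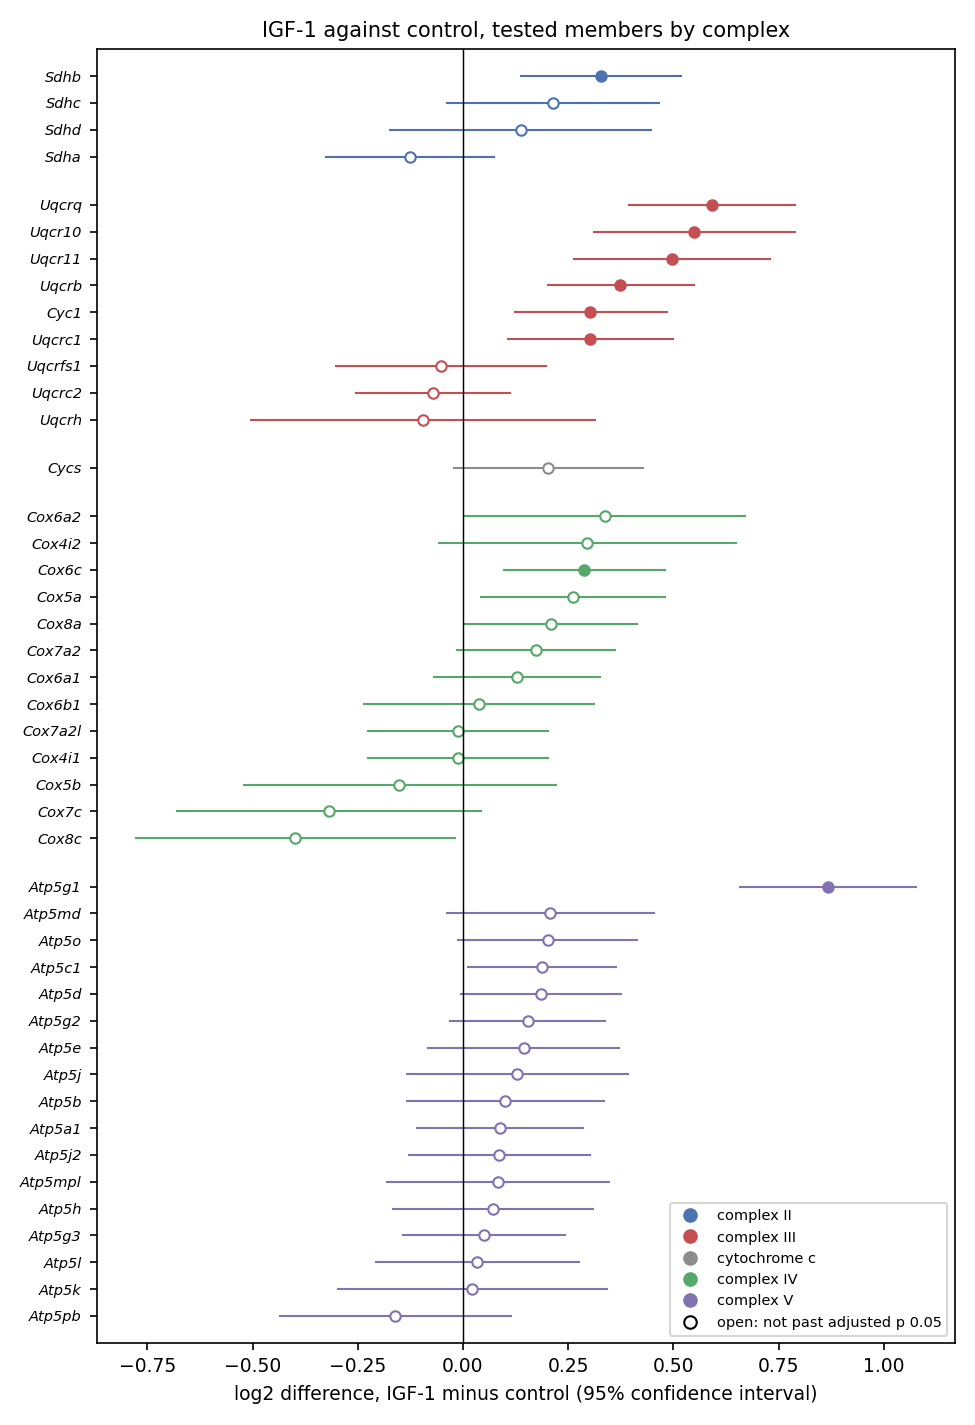
Log2 difference between IGF-1 and control arrays (horizontal axis) for the 44 tested members, ordered within each complex, with 95% confidence intervals from limma; filled points passed an adjusted p of 0.05. Atp5g1 stands at 0.87, complex III splits into 6 filled points between 0.30 and 0.59 and 3 open points between -0.10 and -0.05, and most other members lie between 0 and 0.34.

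The calls differed in whether they held with 1 array fewer. Uqcr10, Uqcr11, Uqcrb, Uqcrq and Atp5g1 kept their calls with each of the 6 arrays left out in turn (highest limma adjusted p 0.0488, for Uqcrb). The other 4 did not. The call of Sdhb ended when control 3, or an IGF-1 array, was removed, with adjusted p up to 0.0886. Cyc1, Uqcrc1 and Cox6c each lost it whichever 1 of the 6 arrays was left out (highest adjusted p 0.114, 0.146 and 0.148). For these genes the loss was thus not tied to a particular array. Their differences stayed at 0.28 to 0.33, 0.27 to 0.33 and 0.24 to 0.335, and that of Sdhb at 0.28 to 0.36. The number of members that rose was therefore 6 without control 1 or control 2 and 5 without control 3 or any 1 IGF-1 array. Over all genes the share that rose was lower too, at 3.58% to 6.09% with 1 array left out against 7.05% with all 6. The deposited signals had nearly equal trimmed means in the 6 arrays. The spiked hybridization controls had a mean log2 signal of 7.833 to 8.104 in control arrays and 7.598 to 7.738 in IGF-1 arrays. The cause of that difference was not tested. Scaling the arrays to these spiked controls moved the median of all genes to 0.26 and the number of members that rose to 29. Under that scaling 24.6% of all genes rose, and 92.3% of the calls over all genes were rises, against 46.7% with the signals as deposited. The members' median lay 0.17 above that of all genes, against 0.15. Directions below are relative to the scaling of the deposited signals.

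Among the 4 genes of complex II, the iron-sulphur subunit Sdhb rose and the other 3 did not pass. Sdhb signals were 1414, 1435 and 1273 in control arrays and 1786, 1686 and 1711 in IGF-1 arrays, so the groups did not overlap. The log2 difference was 0.33 ± 0.09 (SE, n = 3 per group; limma adjusted p = 0.029). Sdha, the flavoprotein that oxidises succinate and partner of Sdhb in the catalytic head, lay lower in every IGF-1 array, at 653, 583 and 632 against 709, 657 and 675 in controls. Its difference of -0.13 ± 0.09 did not pass (adjusted p = 0.39) and was 0.16 under scaling to the hybridization controls. The membrane anchors Sdhc and Sdhd had differences of 0.21 ± 0.11 (adjusted p = 0.239) and 0.14 ± 0.14 (adjusted p = 0.556), with overlapping groups. The Sdhd value rested on IGF-1 3, which read 1066 where the other 5 arrays read 708 to 787, and was -0.04 without that array.

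In complex III, 6 of 9 members rose and the remaining 3 had differences slightly below 0. The largest changes were in small subunits without a cofactor. Uqcrq signals were 1395, 1604 and 1395 in controls and 2246, 2127 and 2262 with IGF-1, a ratio of means of 1.51 and a log2 difference of 0.59 ± 0.09 (limma adjusted p = 0.0027). That rise rests on 1 probe set of the _s_at kind: without _s_at and _x_at sets Uqcrq was -0.15 (adjusted p = 0.542), and with its probe sets averaged 0.22 (adjusted p = 0.105). Uqcr10 read 813, 733 and 672 in controls and 1198, 1099 and 974 with IGF-1 (0.55 ± 0.11, adjusted p = 0.00872; 0.26 and 0.0796 with probe sets averaged). Uqcr11 read 324, 386 and 359.5 in controls and 552.5, 468 and 507 with IGF-1 (0.50 ± 0.10, adjusted p = 0.0124). In each of these 3 genes the lowest IGF-1 array stood above the highest control array. Uqcrb, a matrix-side subunit near the ubiquinone site, read 2316, 2180 and 2220 in controls and 2982, 2877 and 2860 with IGF-1 (0.37 ± 0.08, adjusted p = 0.0118; 0.25 and 0.0744 with probe sets averaged).

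Of the redox and core subunits of complex III, Cyc1 and Uqcrc1 rose and Uqcrc2 and Uqcrfs1 did not pass. Cyc1, the haem-carrying subunit that passes electrons to cytochrome c, read 993, 958.5 and 958 in controls and 1207, 1159 and 1236 with IGF-1 (0.30 ± 0.08, limma adjusted p = 0.0326). Uqcrc1, a core subunit, read 621, 569 and 592 in controls and 705, 769 and 735 with IGF-1 (0.30 ± 0.09, adjusted p = 0.0436). Both rises were separated between groups, but these are the calls that ended with any single array left out. Uqcrc2, the other core subunit, was -0.07 ± 0.08 by its brightest probe set (95% confidence interval -0.25 to 0.11, adjusted p = 0.611). Its second probe set, read at a mean signal of 1256, gave 0.24 ± 0.09 (adjusted p = 0.115), so the probe sets of this gene differ in sign. Uqcrfs1, the Rieske iron-sulphur protein, was -0.05 ± 0.11 (interval -0.30 to 0.20, adjusted p = 0.8). Uqcrh, the hinge subunit beside Cyc1, was -0.10 ± 0.19 (interval -0.50 to 0.31, adjusted p = 0.776), with control 3 at 1994, the other controls at 1275 and 1231, and IGF-1 arrays at 1622, 1413 and 1119. Uqcrc2, Uqcrfs1 and Uqcrh were above 0 (0.22, 0.23 and 0.19) under scaling to the hybridization controls, and Uqcrh was 0.13 without control 3.

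**Figure D2:**
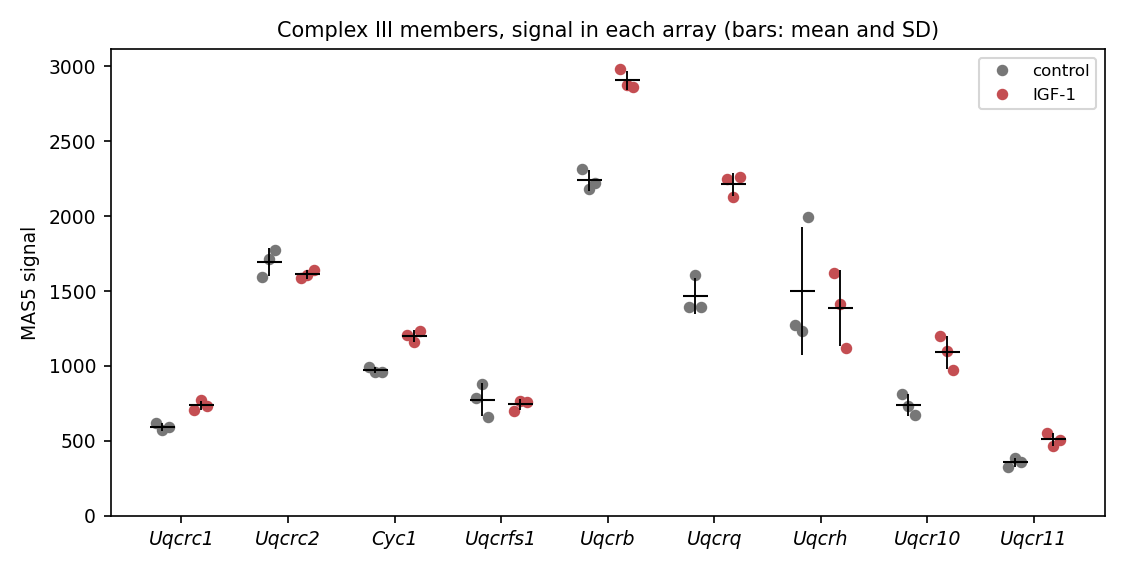
MAS5 signal (vertical axis, linear from 0) of the 9 complex III members in each control (grey) and IGF-1 (red) array, with the mean and SD of 3 arrays as black bars. The groups are separate for Uqcrc1, Cyc1, Uqcrb, Uqcrq, Uqcr10 and Uqcr11 and overlap for Uqcrc2, Uqcrfs1 and Uqcrh, where control 3 of Uqcrh stands alone at 1994.

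Promoter windows of the rising complex III genes Uqcrc1 and Uqcr11 are shown because they hold a match to a motif of the factors known to control respiratory genes. The window of Uqcrc1 is chr9:108936398-108936697 on the + strand and that of Uqcr11 chr10:80406772-80407071 on the - strand (RefSeq, GRCm38.p6), each from 250 bases before to 50 bases after the annotated gene start. Capitals mark 2 matches to the NRF1 motif in Uqcrc1 and 1 match to the ETS motif in Uqcr11.
Uqcrc1: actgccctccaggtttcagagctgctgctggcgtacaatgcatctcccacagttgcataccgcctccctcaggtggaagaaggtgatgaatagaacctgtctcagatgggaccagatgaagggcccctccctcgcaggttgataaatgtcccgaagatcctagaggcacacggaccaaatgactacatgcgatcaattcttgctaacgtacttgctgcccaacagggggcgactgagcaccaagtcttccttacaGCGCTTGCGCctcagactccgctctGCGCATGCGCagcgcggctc
Uqcr11: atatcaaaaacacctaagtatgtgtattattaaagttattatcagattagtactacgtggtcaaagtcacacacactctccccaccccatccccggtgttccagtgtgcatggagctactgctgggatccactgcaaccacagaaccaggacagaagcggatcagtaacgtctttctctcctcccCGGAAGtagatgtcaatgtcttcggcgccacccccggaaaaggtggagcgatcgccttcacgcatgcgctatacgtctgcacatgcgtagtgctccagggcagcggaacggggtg
The window of Uqcr10, which rose more than either, held no match to the 3 motifs searched.

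Cycs, the mobile carrier between complexes III and IV that also triggers caspase activation when released, read 1455, 1413 and 1208 in controls and 1697, 1455 and 1539 with IGF-1. The groups did not overlap but all but touched, at 1454.83 in control 1 and 1455.29 in IGF-1 2. The difference of 0.20 ± 0.10 did not pass (limma adjusted p = 0.209), nor did those of its other 2 tested probe sets, 0.18 and 0.04.

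In complex IV, 1 of 13 tested members rose and 12 did not pass. Cox6c, a small membrane-spanning subunit, read 2068, 1894 and 2091 in controls and 2575, 2309 and 2520 with IGF-1, a difference of 0.29 ± 0.09 (limma adjusted p = 0.0482), and its second probe set gave 0.09. Of the subunits that frame the catalytic core, Cox4i1 was -0.01 ± 0.10 (95% confidence interval -0.23 to 0.20, adjusted p = 0.95; 0.28 under scaling to the hybridization controls). Cox5a, the neighbour of Cox4i1, was 0.26 ± 0.10 (adjusted p = 0.103), with IGF-1 arrays at 2196, 1754 and 1836 above controls at 1606, 1635 and 1555. Cox5b, a zinc-binding subunit, was -0.15 ± 0.17 (adjusted p = 0.591; 0.14 under that scaling), with control 1 at 2100 and the other controls at 3282 and 3277. Its 4 other tested probe sets lay between -0.10 and 0.10.

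Paralogues of complex IV subunits with tissue-restricted expression gave low or undetermined values. Cox7a1, the muscle partner of Cox7a2, Cox8b, the muscle partner of Cox8a, and Cox6b2, the testis partner of Cox6b1, had mean signals of 4.86 to 17.4 in both groups and lay below the filter. The muscle form Cox6a2 passed the filter, at 91.5, 78.9 and 109 in controls and 145, 108 and 112 with IGF-1, overlapping groups with a difference of 0.34 ± 0.15 (limma adjusted p = 0.158). The lung form Cox4i2 read 55.7 ± 10.8 in controls and 71.5 ± 7.82 with IGF-1 (SD, n = 3), a difference of 0.30 ± 0.16 (adjusted p = 0.245). The broadly expressed partners Cox6a1, Cox6b1, Cox7a2 and Cox8a had differences of 0.13, 0.04, 0.17 and 0.21 (adjusted p 0.378, 0.864, 0.197 and 0.156). For Cox8a the second probe set, at 0.28 ± 0.09, stood at the threshold (adjusted p = 0.0501). Cox8c, a testis form, had the lowest value of all members, -0.40 ± 0.17 (adjusted p = 0.146). It read 174, 226 and 208 in controls and 126, 129 and 202 with IGF-1, and it passed as a fall (1 member) with IGF-1 3 left out. Cox7c, close to the filter at 56.3 to 87.5 in controls and 51.3 to 58.1 with IGF-1, was -0.32 ± 0.16 (adjusted p = 0.221). Cox7a2l, which joins complexes III and IV into supercomplexes, was -0.01 ± 0.10 by its brightest probe set (adjusted p = 0.95; 0.27 under scaling to the hybridization controls), while another of its 3 probe sets passed as a fall (-0.30 ± 0.09, adjusted p = 0.0483).

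In complex V, Atp5g1 had the largest rise of all members and the 16 others did not pass. Atp5g1 is 1 of 3 nuclear genes for subunit c, the membrane ring whose rotation drives the synthase; Atp5g1, Atp5g2 and Atp5g3 are known to encode the same mature protein behind different import sequences. Atp5g1 read 622, 620.1 and 551 in controls and 1063, 1059 and 1187 with IGF-1, 1.85 times the control mean. The log2 difference was 0.87 ± 0.09 (95% confidence interval 0.66 to 1.08, limma adjusted p = 0.000488). It lay between 0.81 and 0.90 with any 1 array left out. Atp5g2 read 1730, 1894 and 1792 in controls and 2009, 2095 and 1926 with IGF-1, and its difference of 0.15 ± 0.08 (interval -0.03 to 0.34) did not pass (adjusted p = 0.247). Atp5g3 read 2460, 2507 and 2689 in controls and 2452, 2805 and 2681 with IGF-1, with overlapping groups and a difference of 0.05 ± 0.09 (interval -0.14 to 0.24, adjusted p = 0.743).

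The rise of Atp5g1 was set against its paralogues within each array. The log2 signal of Atp5g1 minus that of Atp5g2 was -1.57 ± 0.11 in controls and -0.86 ± 0.15 with IGF-1 (SD, n = 3), a change of 0.71. Against Atp5g3 the change was 0.82. Both had the smallest p that an exact permutation test of 3 against 3 arrays can give, 0.1 (two-sided; 0.15 after Benjamini-Hochberg adjustment over 3 pairs), so this test cannot pass a threshold of 0.05 at that number of arrays. Between Atp5g2 and Atp5g3 the change was 0.10 (exact permutation p = 0.3, adjusted 0.3). The differences of the paralogues come from different probe sets, and only their changes between groups can be compared.

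Promoter windows of the 3 subunit c genes are shown because the genes share a protein product while their signals changed unequally. They are chr11:96075582-96075881 for Atp5g1, chr15:102670998-102671297 for Atp5g2 and chr2:73911277-73911576 for Atp5g3, all on the - strand (RefSeq, GRCm38.p6). Capitals mark matches to the NRF1 motif in Atp5g2 and Atp5g3 and to the ETS motif in Atp5g2.
Atp5g1: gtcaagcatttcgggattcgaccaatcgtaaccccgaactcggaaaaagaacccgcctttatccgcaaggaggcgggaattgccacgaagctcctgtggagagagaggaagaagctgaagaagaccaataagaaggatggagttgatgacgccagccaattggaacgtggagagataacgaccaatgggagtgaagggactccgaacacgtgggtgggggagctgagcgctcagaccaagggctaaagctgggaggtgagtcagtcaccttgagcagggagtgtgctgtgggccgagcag
Atp5g2: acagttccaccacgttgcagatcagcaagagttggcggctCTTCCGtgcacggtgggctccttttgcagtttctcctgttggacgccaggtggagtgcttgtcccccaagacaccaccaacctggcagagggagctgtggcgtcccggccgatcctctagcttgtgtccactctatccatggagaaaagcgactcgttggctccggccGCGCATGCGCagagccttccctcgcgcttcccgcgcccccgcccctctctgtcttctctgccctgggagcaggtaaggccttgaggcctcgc
Atp5g3: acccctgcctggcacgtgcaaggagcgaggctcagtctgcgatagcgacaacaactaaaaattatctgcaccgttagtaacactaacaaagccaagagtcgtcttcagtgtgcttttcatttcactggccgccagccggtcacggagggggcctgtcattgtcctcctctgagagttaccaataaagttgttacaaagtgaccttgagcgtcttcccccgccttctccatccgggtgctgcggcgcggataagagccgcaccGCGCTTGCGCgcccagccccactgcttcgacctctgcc
The Atp5g1 window held no match to the motifs searched, which says only that these letters are not in this window.

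None of the other parts of the synthase passed the test by its brightest probe set. In the catalytic head, Atp5a1 and the catalytic subunit Atp5b had differences of 0.09 ± 0.09 and 0.10 ± 0.11 (limma adjusted p 0.555 and 0.568), with overlapping groups. Atp5c1, the central shaft, read 1451, 1481 and 1439 in controls and 1615, 1712 and 1660 with IGF-1. The groups were apart, and the difference of 0.19 ± 0.08 did not pass (adjusted p = 0.139); a dim second probe set gave -0.19. The rotor subunits Atp5d and Atp5e had 0.19 ± 0.09 and 0.15 ± 0.10 (adjusted p 0.177 and 0.386), and a second probe set of Atp5d passed at 0.50 ± 0.10 (adjusted p = 0.0111). In the peripheral stalk, which holds the head still, Atp5o was 0.20 ± 0.10 (adjusted p = 0.19), Atp5j 0.13 and Atp5h 0.07. Atp5pb, also of the stalk, was the 1 member of complex V below 0. It read 831, 1084 and 957 in controls and 977, 831 and 755 with IGF-1, an overlap of groups with a difference of -0.16 ± 0.12 (adjusted p = 0.428). Its second probe set gave 0.14, and the brightest gave 0.12 under scaling to the hybridization controls. The small membrane subunits Atp5md, Atp5j2, Atp5mpl, Atp5l and Atp5k lay between 0.02 and 0.21, with adjusted p from 0.241 to 0.937.

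**Figure D3:**
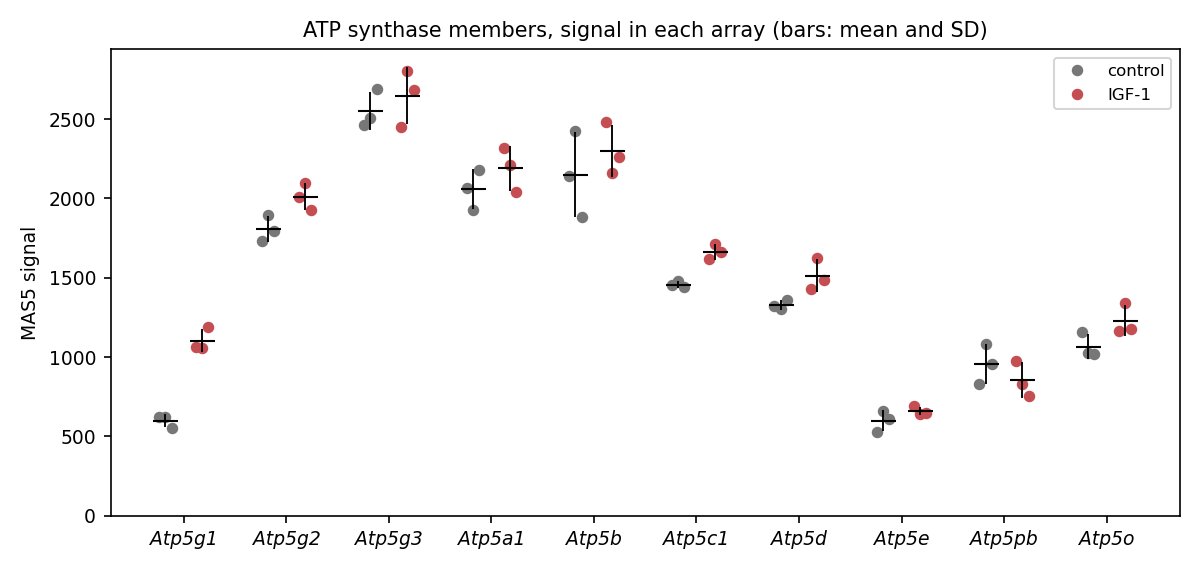
MAS5 signal (vertical axis, linear from 0) of 10 ATP synthase members in each control (grey) and IGF-1 (red) array, with the mean and SD of 3 arrays as black bars. The 3 IGF-1 arrays of Atp5g1 lie at 1059 to 1187 and its controls at 551 to 622, while the groups of Atp5g3, Atp5a1, Atp5b, Atp5e and Atp5pb overlap.

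Set side by side, complex III stood highest among the complexes. The median log2 difference was 0.30 over the 9 tested members of complex III, 0.18 over the 4 of complex II, 0.13 over the 13 of complex IV and 0.10 over the 17 of complex V, against -0.01 over all genes. The share of tested members that rose was 66.7% in complex III (6 of 9), 7.69% in complex IV and 5.88% in complex V, with 1 of 4 in complex II, against the 7.05% of all genes. These shares depended on the settings. With the probe sets of each gene averaged, only Cyc1, Uqcr11 and Uqcrc1 rose in complex III, beside Sdhb, Cox8a, Atp5d and Atp5g1 elsewhere. In limma without the intensity trend, Uqcr10, Uqcr11, Uqcrb and Uqcrq rose in complex III and only Atp5g1 elsewhere. In complex V 16 of 17 members (94.1%) lay above 0 although 1 passed, and in complex IV 8 of 13 (61.5%) did, against 48.7% of all genes. No test of the difference between complexes was made, because members measured on the same arrays are not replicates.

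The level of a complex in an array was taken as the mean over its tested members of log2 signal minus each member's 6-array mean. Complex III levels were -0.15, -0.12 and -0.12 in control arrays and 0.18, 0.13 and 0.10 in IGF-1 arrays, which is the widest gap of the 4 complexes. Complex V levels were -0.16, -0.02 and -0.04 in controls and 0.09, 0.06 and 0.07 with IGF-1, so these groups were also apart. In complex II the gap was narrow, with control 2 at -0.05 and IGF-1 2 at -0.04. In complex IV the groups overlapped, since control 2 stood at 0.05 and IGF-1 2 at -0.02. Control 1 had the lowest level of complexes III, IV and V.

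**Figure D4:**
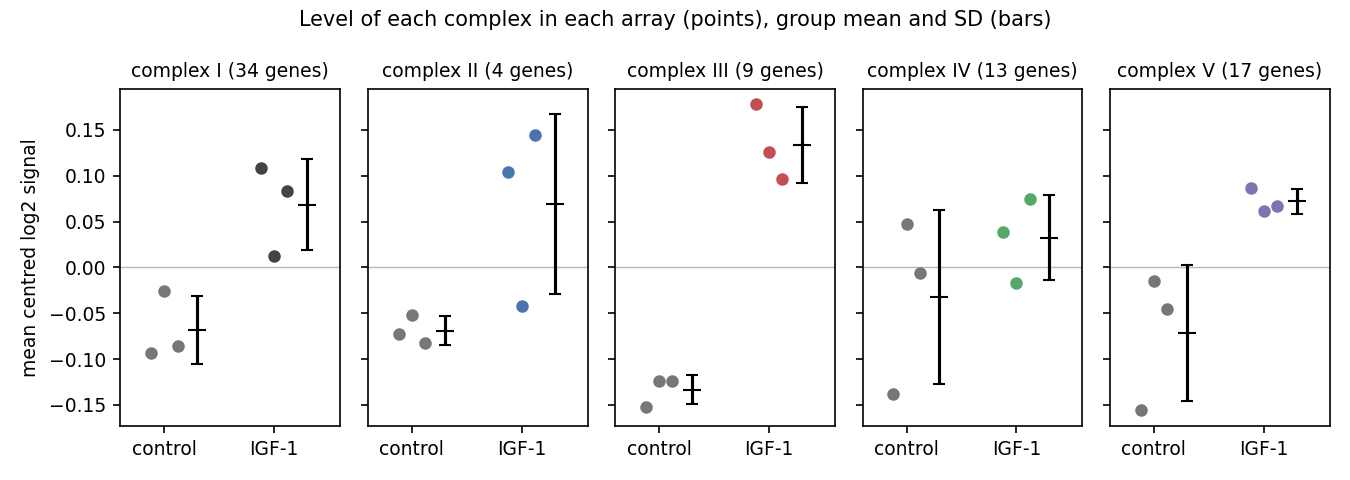
Mean centred log2 signal (vertical axis) of each complex in each control (grey) and IGF-1 (coloured) array, with the group mean and SD of 3 arrays at the right of each group. Complex III spans -0.15 to 0.18 with a clear gap between groups, whereas control 2 (0.05) and IGF-1 2 (-0.02) of complex IV cross. The first panel holds the 34 complex I subunits, for comparison. Their groups were also apart, at -0.09, -0.03 and -0.09 in controls and 0.11, 0.01 and 0.08 with IGF-1.

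Where a member had several probe sets, they did not always move together. Of the 75 tested probe sets, 10 passed as rises and 1 as a fall, the fall being that of Cox7a2l. Among the 24 genes with several tested probe sets, all probe sets had the same sign in 16. Of 31 tested probe sets that were not the brightest of their gene, 2 passed, those of Atp5d and Cox7a2l. Over all genes, each read by its brightest probe set, 7.05% rose and 8.05% fell. The shares over all 11313 probe sets tested are not given here, so these counts of probe sets have no background of their own. The rises of Uqcrq, Uqcr10, Uqcrb and Cox6c rested on their brightest probe set. Their next probe sets had mean signals of 59.9, 104.6, 266 and 437. Those gave -0.15, -0.03, 0.13 and 0.09 (limma adjusted p 0.537, 0.915, 0.532 and 0.697). The brightest probe set of Uqcrq has the suffix of sets that can also match related transcripts. Atp5g1, Uqcr11, Cyc1, Uqcrc1 and Sdhb were read by a single probe set.

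**Figure D5:**
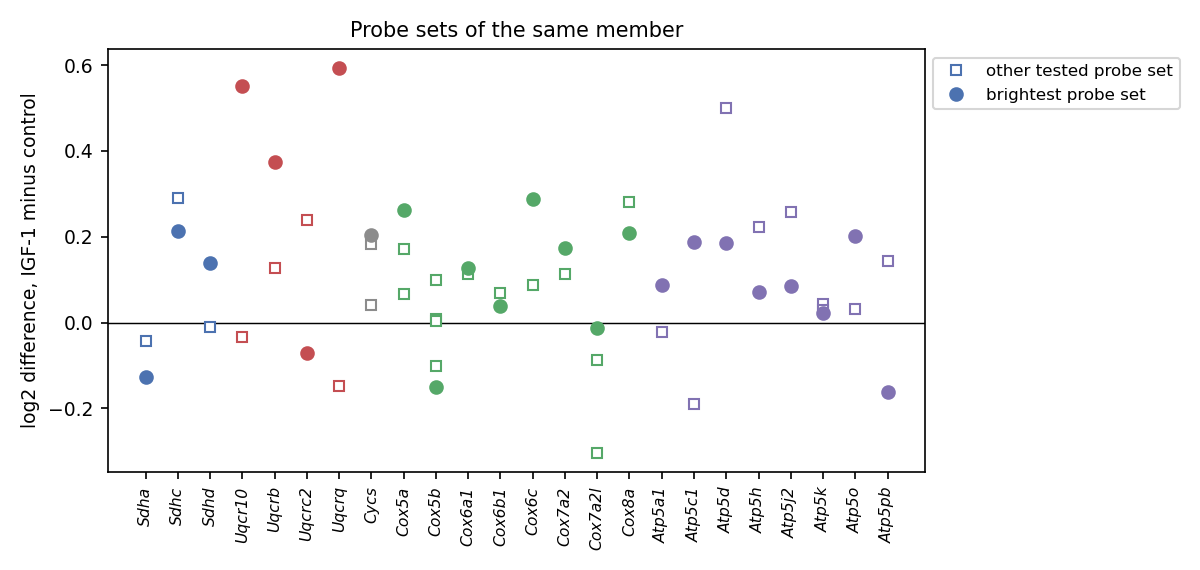
Log2 difference between IGF-1 and control (vertical axis) of every tested probe set of the 24 members with several, filled circles for the brightest and open squares for the others, coloured by complex. Uqcrq spans 0.59 to -0.15 and Uqcr10 spans 0.55 to -0.03, while the probe sets of Cox6a1, Cox6b1 and Atp5k lie close together.

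Other genes of the pathway were described by the same fit. Of 34 tested complex I subunits, 4 rose and 0 fell (10 and 0 at an unadjusted p below 0.05 in limma), with a median of 0.14, beside 0.14 for the members. Over all genes the shares were 7.05% that rose and 8.05% that fell, and 14.4% higher and 16.1% lower at that unadjusted p. The 4 were Ndufa5, Ndufa12, Ndufc2 and Ndufs8 (0.47, 0.42, 0.36 and 0.32). Of 26 tested assembly factors of complexes II to V, 4 rose and 0 fell (8 and 2 at an unadjusted p below 0.05), with a median of 0.02. Uqcc2, an assembly factor of complex III, rose by 0.50 ± 0.12 (adjusted p = 0.0186), and Uqcc3, of the same complex, was 0.21 ± 0.10 (adjusted p = 0.201). Cox16 and Cox20, which help build complex IV, rose by 0.45 and 0.40, and Sdhaf1, which matures Sdhb, by 0.40 (adjusted p 0.0178, 0.0487 and 0.0498). Among 12 tested regulators of mitochondrial gene expression 1 fell, Myc (-1.24 ± 0.11, limma adjusted p = 0.000141), and 0 rose (0 higher and 1 lower at an unadjusted p below 0.05). That count is near the share of all genes that fell. Of the 12, 9 had a difference below 0 and 3 above, with a median of -0.10, where 48.7% of all genes lay above 0. The factors Nrf1 and Gabpa, which bind the motifs described here, were 0.07 ± 0.12 and -0.14 ± 0.11 (adjusted p 0.728 and 0.443), and Tfam, which packages mitochondrial DNA, was -0.04 ± 0.11 (adjusted p = 0.857).

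Motifs of known respiratory gene regulators were counted in the promoters of the members and, for comparison, of other genes, with no test. RefSeq windows of 300 bases were found for 35 of the 47 members, 38 windows in all. They were searched on both strands for an NRF1 motif (GCGC, any 2 bases and GCGC, which reads alike on both strands), an ETS motif of the GABPA kind (CGGAAG) and a YY1 motif (AAGATGG), matches being counted whether or not they overlapped another. The NRF1 motif was in 26.3% of the member windows, 14.6% of the 7312 windows of genes tested on the arrays and 6.23% of all 32851 windows. The ETS motif was in 55.3%, 33.8% and 16.9%, and the YY1 motif in 10.5%, 7.92% and 6.34%. The median GC content was 56.8% in the member windows and 61.0% in those of genes tested on the arrays. By complex, at least 1 of the 3 motifs was in 3 of 3 windows of complex II, 3 of 5 of complex III, 7 of 11 of complex IV and 13 of 18 of complex V, against 46.7% of the windows of genes tested on the arrays and 25.7% of all windows. Of the 5 windows of members that rose, 3 held one, and of the 30 windows of tested members that did not pass, 23 did. These counts are a description, and a match of letters is not a binding site.

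Markers of other marrow cells gave signal in these samples. Their counts stand beside the shares of all genes, 7.05% that rose, 8.05% that fell and 48.7% with a difference above 0. Of 10 tested neutrophil markers 2 fell (Ltf and Ctsg) and 0 rose (0 higher and 5 lower at an unadjusted p below 0.05 in limma), and 9 of 10 had a difference below 0, with a summed signal of 25290 to 30230 in control arrays and 23420 to 26110 in IGF-1 arrays. Of 6 tested macrophage and monocyte markers (10 on the array) 2 fell (Csf1r, -1.03, and Cd14, -0.82) and 1 rose (Cd68, 0.41). At that unadjusted p 1 was higher and 3 were lower, and 5 of 6 had a difference below 0. The median was -0.50, against -0.24 for the neutrophil and -0.18 for the plasma cell markers. Their sums were 5457 to 7201 in control arrays and 4694 to 6445 in IGF-1 arrays for the macrophage and monocyte markers. Of 3 tested erythroid markers (5 on the array) 1 rose, with sums of 319 to 475 and 394 to 473, and all 6 T cell markers on the array lay below the filter, with sums of 105 to 145.0 and 99.1 to 128. Of 8 plasma cell markers 2 fell (Slamf7 and Tnfrsf17) and 0 rose (0 higher and 4 lower at that unadjusted p), and 7 of 8 had a difference below 0, with sums of 12650 to 13760 in controls and 11760 to 12250 with IGF-1. The differences were -0.62 for Slamf7, -0.51 for Tnfrsf17, -0.39 for Prdm1, -0.20 for Xbp1, -0.17 for Irf4, -0.04 for Jchain and for Pou2af1, and 0.14 for Sdc1. Fewer cells of a type and less RNA per cell cannot be told apart in such samples, and the part of these cell markers in the results was not tested.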

How the data were processed

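Total RNA was converted to biotinylated cRNA by oligo-dT priming and hybridized to 1-colour Affymetrix arrays, per the labels' protocols. The deposited values are linear intensities, which the authors computed with GCOS software and its MAS5 algorithm according to the submitters' processing notes, where no version is named. Trimming 2% of probe sets at each end gave mean signals of 150.05 to 150.06 in the 6 arrays, so differences are relative to an equal overall signal. Array medians were 49.96 to 55.36. Precision is limited by there being 3 arrays a group.

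Of 22690 probe sets, 64 controls were left out, 20380 had 1 symbol, 691 several (0 of them matching the members' rule) and 1555 none. All 47 members matched the RefSeq gene table, which changed 0 symbols. Signals were tested as log2(signal + 15.57), the 25th percentile of all signals, with limma 3.58.1 in R 4.3.3 (lmFit, eBayes with intensity trend, two-sided, Benjamini-Hochberg over 11313 probe sets with mean signal above the median, threshold 0.05). The log2 differences understate changes of dim probe sets. The fit was tested on simulated data with the same independent noise for every probe set and planted changes larger than most rises called here. It therefore does not test those calls. Members, lists and tests were chosen with earlier results of these data known. Values are given for members past the threshold, the 3 highest and 3 lowest differences of complexes III and IV, and all of complex II. They are also given for Cycs, Cyc1, and core subunits and paralogues fixed by name. Atp5md, Atp5l and Atp5k, among the 3 highest or 3 lowest of complex V, are given within a range. Others are given as ranges or by role. Alternatives covered pseudocount, filter, normalization, eBayes settings, array weights, probe set choice, replicate block and each array left out. Tables were handled with Python 3.11.15 (pandas 2.3.3, numpy 2.4.6, scipy 1.17.1) and plotted with matplotlib 3.10.9. Promoter windows are RefSeq's, build GRCm38.p6.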

Additional observations from a re-analysis of the deposited data

How the results depend on the processing

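The 9 rises were the same genes with a pseudocount of 1 or 50, a filter at the 70th percentile, robust eBayes and array weights. In that order, 6.96%, 7.14%, 10.4%, 7.15% and 7.66% of all genes rose. The filter at the 70th percentile, which keeps brighter probe sets, left 41 members tested. There were 6 rises with no filter, 7 with quantile normalization and 5 with eBayes without the trend, all among the 9. Over all genes 2.32%, 7.4% and 5.74% rose in these settings. Without _s_at and _x_at probe sets there were 9 (7.59% of all genes rose), with Cox8a in place of Uqcrq. With the probe sets of a gene averaged there were 7 (8.05% of all genes rose), of which 5 were among the 9, and the median of complex III was 0.25. Scaling to the hybridization controls gave 29 rises and medians of 0.425 over all members and 0.456, 0.59, 0.417 and 0.39 for complexes II, III, IV and V. With 1 array left out, 5 to 6 members rose and 0 to 1 fell, beside 3.58% to 6.09% and 4.23% to 6.95% of all genes. Medians were then 0.11 to 0.19 for all members, 0.10 to 0.26 for complex II, 0.30 to 0.33 for complex III, 0.09 to 0.20 for complex IV and 0.06 to 0.17 for complex V. The cause of these shifts was not tested. The change of Atp5g1 against Atp5g2 was 0.63 to 0.77 and against Atp5g3 0.72 to 0.89 with 1 array left out, where no test was run. With the replicate number as a replicate block, 6 members and 6.93% of all genes rose. Same-numbered arrays deviated together weakly (correlations 0.12, -0.03 and 0.13), so the numbers were not taken as pairs. The alternative that adds probe sets with several symbols was not run, since 0 matched.

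Some members changed sign. Scaling to the hybridization controls moved the median of all genes from -0.01 to 0.26, and members slightly below 0 turned with it: Atp5pb (0.12), Cox4i1 (0.28), Cox5b (0.14), Cox7a2l (0.27), Sdha (0.16), Uqcrc2 (0.22), Uqcrfs1 (0.23) and Uqcrh (0.19). Without _s_at and _x_at probe sets they were Atp5c1 (-0.19), Atp5pb (0.14), Cox5b (0.10) and Uqcrq (-0.15), of which Uqcrq was a called rise at 0.59 and Atp5c1 had been 0.19. Averaging probe sets turned Atp5c1 (-0.000358) and Uqcrc2 (0.085). Atp5k was -0.00834 with quantile normalization and -0.00658 with array weights, and Cox7a2l 0.014 with array weights. With 1 array left out, values ran from -0.082 to 0.193 for Atp5k, -0.065 to 0.1 for Atp5l, -0.08 to 0.063 for Cox4i1, -0.076 to 0.164 for Cox6b1, -0.074 to 0.073 for Cox7a2l, -0.039 to 0.25 for Sdhd, -0.16 to 0.043 for Uqcrfs1 and -0.218 to 0.127 for Uqcrh. The cause of the sign changes other than under that scaling was not tested.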
